A study of Mus musculus with 8 samples.

Results

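The genes described here encode the subcortical maternal complex of the mouse oocyte and oocyte members of the NLRP family related to it: Ooep, Khdc3, Tle6, Nlrp5, Padi6, Nlrp4f, Nlrp14 and Nlrp2. These 8 genes were chosen by name, not by a cut on their measured values, from the 23107 genes of the count table. Earlier results of these data were known when they were chosen. Of them, 7 were found under their symbols, and Khdc3 was found under its older symbol 2410004A20Rik, which the RefSeq gene table lists as its synonym. RNA came from the ovarian cortex of mice at postnatal day 8, and 4 libraries of input RNA were set against 4 libraries of RNA recovered by immunoprecipitation with an antibody to DCP1A, a protein of the mRNA decapping machinery and of cytoplasmic P-bodies (RNA immunoprecipitation, RIP). The comparison asks which RNAs of the primary oocyte are found with this protein. Input and RIP libraries share the same tissue and age, and no strain, genotype or treatment is given in the labels. Nothing says whether each library had its own animals or its own pool. The p-values therefore describe the variation among these 8 libraries, part of which may be technical. No control-antibody library was analysed here, and RNA that sticks without the antibody's target is not accounted for.

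The subcortical maternal complex is a protein assembly that lies beneath the plasma membrane of oocytes and early embryos and is built from proteins stored by the mother. Its transcripts accumulate in growing oocytes. NLRP5 (also called MATER), OOEP (FLOPED), TLE6 and KHDC3 (FILIA) form its core, and several of its components are also parts of the cytoplasmic lattices, fibres that fill the oocyte and hold stored proteins. Female mice without Nlrp5, Ooep, Tle6 or Padi6 produce embryos that arrest early in cleavage.

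Libraries held 13098154 to 25757620 counts. All 8 genes passed the filter on low counts, together with 14667 genes in all. Levels are given as CPM, the normalised read count per library on a common scale, after TMM normalization. A fold change is RIP over input on the log2 scale with its standard error (SE), from edgeR's quasi-likelihood test, and a gene passed where its adjusted p was under 0.05. By this test 6 of the 14667 genes passed, or 0.0409%, all of them lower in RIP. DESeq2 called 13 genes higher and 43 lower. All 12 oocyte markers (among them Zp1 to Zp3, Gdf9, Figla and Ddx4) passed the filter, with Oosp1 alone at 0 in a library, and their summed level ran from 1268 to 1987 CPM in input and from 1374 to 1768 CPM in RIP. The 8 granulosa cell markers summed to 1033 to 2464 CPM in input and 1292 to 2145 CPM in RIP, and 5 leukocyte markers to 18.0 to 25.2 and 22.2 to 34.7 CPM. A bulk level cannot tell fewer oocytes from less RNA per oocyte. RIP 1 lay apart from the other RIP libraries for Ooep and Nlrp14, and input 3 was the highest or lowest library for 6 members. For each member, the values given without a library include the one that moved most.

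Several members lie beside genes of their own family. In the annotation of GRCm38.p6, the patch release of mm10, Padi6 (chromosome 4, 140727355 to 140742643) lies 2865 bp from Padi4, and Ooep (chromosome 9, 78376903 to 78378588) lies 8704 bp from its KH-domain relative Dppa5a. Nlrp5 (chromosome 7, 23385889 to 23441923) lies 23612 bp from Nlrp4e. Nlrp2 (5298547 to 5351035) and Nlrp14 (107113455 to 107198103) are on chromosome 7 too, and Nlrp4f is on chromosome 13 (65177111 to 65205716). Khdc3 is on chromosome 9 (73101381 to 73106631), apart from Ooep. Tle6 (chromosome 10, 81590904 to 81601185) overlaps its family member Tle2 and the lncRNA gene Gm32024. The span of Nlrp14 also holds Olfr715, with 0 counts in every library, and Olfr716, with at most 7. The span of Nlrp2 holds the pseudogenes Gm18757 and Gm5065, and Gm5065 had 24 to 431 counts, more than Nlrp2 itself in every library. Whether counting used strand is not given, so reads in overlapping stretches cannot be assigned with certainty.

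Promoter sequence is shown as background, and whether it bears on the levels of the members in these libraries was not tested. The RefSeq promoter table, of the GRCm38.p6 build, holds 300 bases a start, 250 before and 50 after it, and it matched 7 of the 8 genes. Nlrp14 was not among them. An E-box (CANNTG, searched on both strands) is the kind of site bound by FIGLA, the oocyte transcription factor that drives the zona pellucida genes. The homeodomain factor NOBOX, also of the oocyte, binds TAATTG. For the 6 genes that had an E-box lying wholly before the start, the one nearest to the start is shown with its flanks, and capitals mark the motif.
Ooep: cccagcctaccCACTTGcgcggtgcgcg
Nlrp5: agtactgggcgCAGCTGttcccagtcta
Padi6: tcctccaggctCACCTGtgaacccttaa
Tle6: agtccggggccCACGTGcaccgtggcct
Khdc3: ggtttgggatcCAATTGgaaggacttga
Nlrp4f: tgtgtgcccttCATTTGtcttccctttt
Counted from the start, these E-boxes began at -78 in Ooep (chr9:78378650-78378677, minus strand), -107 in Nlrp5 (chr7:23385771-23385798, plus strand), -78 in Padi6 (chr4:140742705-140742732, minus strand), -119 in Tle6 (chr10:81601003-81601030, minus strand), -11 in Khdc3 (chr9:73102376-73102403, plus strand) and -133 in Nlrp4f (chr13:65205833-65205860, minus strand). The starts used for Tle6 and Khdc3 lie 285 and 1017 bp inside the annotated gene end. Nlrp2 had no E-box in its window. The motif was present in 72.3% of the 32851 promoters of the table, so its presence does not set the members apart. TAATTG on either strand was found in Ooep, at -195, and in Padi6, at 8, and in 8.0% of all promoters. The GC content of the window ran from 38.7% in Nlrp4f and 48.0% in Nlrp5 through 52.7% in Khdc3, 56.0% in Padi6 and 58.3% in Ooep to 68.0% in Tle6. The median of all promoters was 52.7%. Of all promoters, 7.91% of promoters had a lower GC content than that of Nlrp4f, and 87.4% had a lower one than that of Tle6.

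No member passed between input and RIP. Of the 8 genes, 4 had a negative and 4 a positive log2 fold change, with a median of -0.09 against -0.02 over all genes tested. That median includes Nlrp2: under a stricter filter, which left Nlrp2 out, the median of the other 7 was -0.38, near the lower quartile of all genes in the main fit (-0.39). At an unadjusted p under 0.05, 2 members were lower and 0 higher, where 4.28% of all genes were lower and 3.15% higher (7.43% in either direction). The genes with negative values were Nlrp14, Nlrp4f, Nlrp5 and Ooep, and those with positive values were Tle6, Padi6, Khdc3 and Nlrp2.

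**Figure D1:**
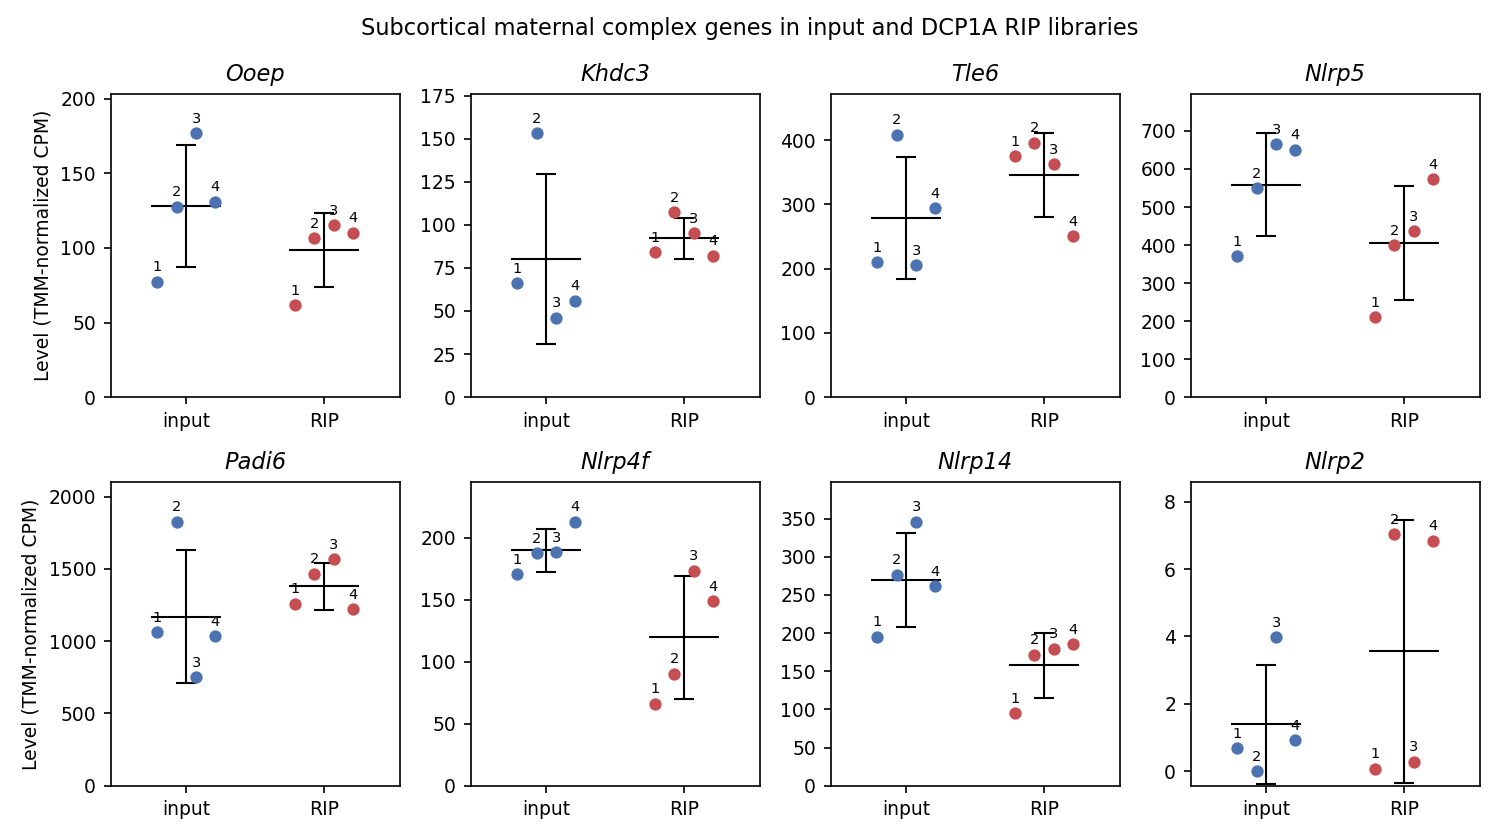
Level of each member in TMM-normalized CPM (vertical axis, linear, its own scale in each panel) in the 4 input libraries (blue) and the 4 RIP libraries (red), numbered as in the labels; black lines are the mean with its SD over 4 libraries. The Nlrp14 values of the 2 groups do not overlap (195 to 346 CPM in input, 94.8 to 185 CPM in RIP), and those of every other member do.

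Among the core genes, Ooep encodes a KH-domain protein that is needed for the complex to assemble. It was at 77.3, 128, 177 and 131 CPM in input libraries 1 to 4, and at 61.8, 107, 115 and 110 CPM in RIP libraries 1 to 4. The groups overlapped, and library 1 was the lowest of each group. The means were 128 ± 41 CPM in input and 98.5 ± 24.7 CPM in RIP (SD, n = 4 each), with a log2 fold change of -0.38 ± 0.29 (SE, adjusted p = 0.787). The 95% interval of the fold change, 0.504 to 1.17, includes 1. The log2 value was -0.18 without input 3 and -0.56 without input 1.

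Khdc3 encodes the other KH-domain subunit, which also helps to keep chromosomes stable in early embryos. Input libraries 1 to 4 held 66.2, 153, 46.1 and 56.0 CPM, and RIP libraries 1 to 4 held 84.0, 107, 95.3 and 82.0 CPM. Input 2 was the highest library and input 3 the lowest, with all RIP libraries between them. The means were 80.4 ± 49.2 and 92.1 ± 11.7 CPM (log2 0.20 ± 0.34, adjusted p = 0.914). Input libraries spanned a 3.33-fold range and RIP libraries a 1.31-fold one. The size of this difference rested on single libraries: the log2 value was 0.72 without input 2 and 0.01 without input 3. It was 0.79 within libraries numbered 3 and 4 and -0.20 within those numbered 1 and 2 (95% interval -0.94 to 0.54). Of the latter, input 2 lay above RIP 2, while input 1 lay below RIP 1.

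Tle6 encodes a divergent member of the Groucho family of co-repressors that serves in the complex rather than in transcription. It was at 210, 408, 206 and 294 CPM in input libraries 1 to 4, and at 375, 396, 362 and 251 CPM in RIP libraries 1 to 4. Input 2 was above every RIP library, so the groups overlapped. The means were 280 ± 95 and 346 ± 65 CPM (log2 0.31 ± 0.27, adjusted p = 0.810), and the log2 value was 0.55 without input 2, 0.19 without input 1 and 0.19 without input 3.

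Nlrp5, the largest of the core subunits and the antigen of an autoimmune oophoritis of mice, was at 371, 549, 665 and 650 CPM in input libraries 1 to 4. In RIP libraries 1 to 4 it was at 211, 400, 437 and 572 CPM. RIP 1 was the lowest of all libraries, and RIP 4 lay within the input range. The means were 559 ± 136 and 405 ± 149 CPM (log2 -0.46 ± 0.30, adjusted p = 0.746). The log2 value was -0.25 without RIP 1 and -0.36 without input 3, but -0.67 without RIP 4 and -0.62 without input 1.

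Padi6, of the peptidylarginine deiminase family, is needed for the cytoplasmic lattices. Its levels were 1064, 1828, 750 and 1034 CPM in input libraries 1 to 4, and 1260, 1468, 1566 and 1222 CPM in RIP libraries 1 to 4. Input 2 was again the highest library and input 3 the lowest, and the RIP libraries lay closer together than the input libraries, with a 1.28-fold range against a 2.44-fold one. The means were 1169 ± 462 and 1379 ± 165 CPM (log2 0.24 ± 0.27, adjusted p = 0.859). As for Khdc3, the log2 value was negative within libraries 1 and 2, at -0.088, and positive within libraries 3 and 4, at 0.64. Here too input 2 lay above RIP 2, while input 1 lay below RIP 1. It was 0.54 without input 2 and 0.08 without input 3.

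The NLRP genes outside the core held both members with an unadjusted p under 0.05. NLRP14 is a maternal NLRP protein that acts with UHRF1, a protein needed for maintaining DNA methylation. Its transcript was at 195, 277, 346 and 261 CPM in input libraries 1 to 4 and at 94.8, 172, 179 and 185 CPM in RIP libraries 1 to 4. Every RIP library lay below every input library, and Nlrp14 was the only member of which this held. Over all genes tested, 5.29% had groups that did not overlap, 2.52% with RIP lower and 2.77% with RIP higher. The means were 270 ± 62 and 158 ± 42 CPM, and the log2 fold change was -0.77 ± 0.27, a fold of 0.585 with a 95% interval of 0.395 to 0.866. Nlrp14 did not pass (adjusted p = 0.622 by edgeR), and its p ranked at 241 of all genes. The log2 value stayed between -0.90 and -0.59 in the 8 fits that left out 1 library, and fits of libraries 1 and 2 and of libraries 3 and 4 alone gave -0.82 and -0.74. Across the 19 alternative fits its adjusted p ran from 0.0779 to 1.00.

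Nlrp4f, whose protein has been found with the core of the complex, was at 171, 188, 188 and 213 CPM in input libraries 1 to 4. In RIP libraries 1 to 4 it was at 66.3, 90.3, 174 and 149 CPM. RIP 3 exceeded input 1 by a small margin, which made the groups overlap, and RIP 1 and RIP 2 were lowest. The means were 190 ± 17 and 120 ± 50 CPM (log2 -0.67 ± 0.29, adjusted p = 0.637). The difference was larger within libraries 1 and 2 (log2 -1.20, adjusted p = 0.159) than within libraries 3 and 4 (-0.32, adjusted p = 0.673), and whether these values differ was not tested. Without RIP 1 the log2 value was -0.46, and without RIP 3 it was -0.89.

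Nlrp2, a maternal NLRP gene whose loss disturbs early development and imprinting of the offspring, was the most variable member between libraries. It had 8, 0, 117 and 25 counts in input libraries 1 to 4 and 1, 148, 6 and 144 counts in RIP libraries 1 to 4. The value of 0 in input 2 allows up to 3 counts, or 0.255 CPM, by counting error alone. Libraries of 1 group differed more than the groups did, with RIP 2 at 7.05 CPM and RIP 1 at 0.0739 CPM. Counts from the overlapping Gm5065 were 79, 24, 431 and 253 in input libraries 1 to 4 and 42, 179, 212 and 173 in RIP libraries 1 to 4, and whether reads of the pair were told apart was not tested. The log2 fold change was 1.33 ± 1.41 (adjusted p = 0.845), with a 95% interval from -1.66 to 4.33, so a difference in either direction was not detectable. Leaving out 1 library gave values from 0.77 (without RIP 2) to 2.73 (without input 3).

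**Figure D2:**
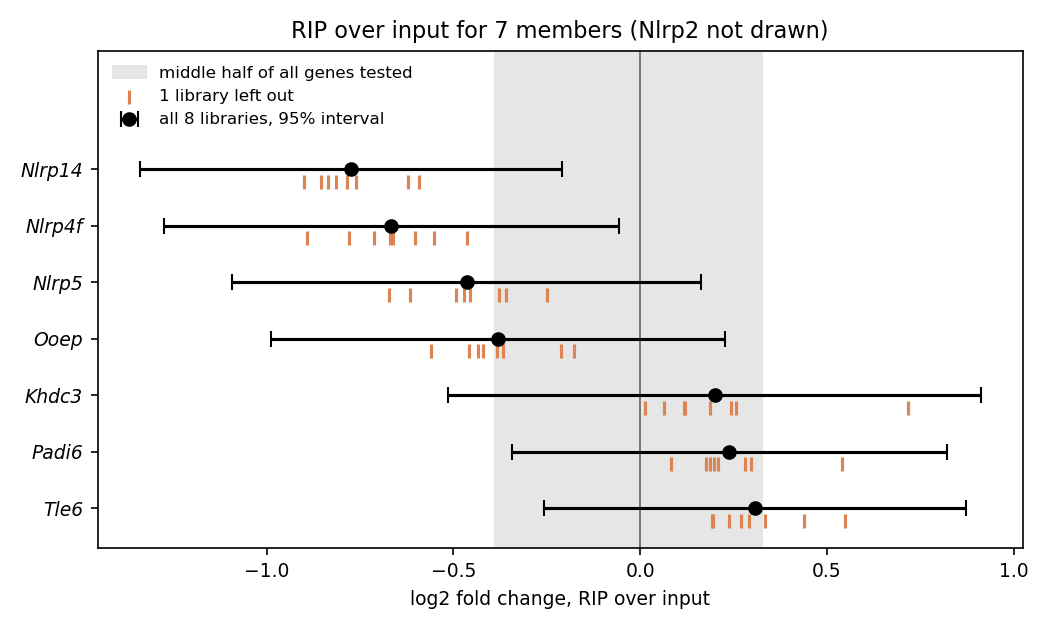
Log2 fold change of RIP over input (horizontal axis) for the 7 members other than Nlrp2; black points with bars are the fit of all 8 libraries with its 95% interval, orange ticks the 8 fits that each left out 1 library, and the grey band the interquartile range of all genes tested. Only the intervals of Nlrp14 (-1.34 to -0.21) and Nlrp4f (-1.28 to -0.06) exclude 0 before adjustment, and all ticks of a gene lie on the same side of 0.

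The members fell into sets by which libraries held most of their RNA. Ooep, Nlrp5 and Nlrp14 were highest in input 3, while Padi6, Tle6 and Khdc3 were lowest there and highest in input 2. RIP 1 was the lowest library for Ooep, Nlrp5, Nlrp14 and Nlrp4f, at -0.81, -1.11, -1.08 and -1.13 on the log2 scale relative to each gene's mean. In the same library Padi6, Khdc3 and Tle6 were at 0.03, 0.05 and 0.31. In input 3, Nlrp14 was at 0.79 and Ooep at 0.71, against -0.72 for Padi6 and -0.81 for Khdc3. These sets were seen in the data and were given no test. Some cell type markers differed between the same libraries: the summed oocyte and granulosa sums were highest in input 2 (1987 and 2464 CPM) and lowest in input 3 (1268 and 1033 CPM). Single oocyte markers differed in direction. Zp3 followed the sum (601 CPM against 186), while Ddx4 (17.0 and 74.1 CPM), Figla (33.9 and 60.7 CPM) and Dazl (33.4 and 58.1 CPM) were higher in input 3. In RIP 1 the sums of the surface epithelium (125 CPM), stroma and theca (2592 CPM) and leukocyte markers (34.7 CPM) were each at their highest. Of the 6 surface epithelium markers, Krt19 alone supplied 65.2 CPM there. Col1a1 alone supplied 2191 CPM of the stroma and theca sum, and Csf1r 27.3 CPM of the leukocyte sum. The other stroma and theca markers differed in direction in RIP 1. Tcf21 (54.6 CPM) and Gli1 (40.85 CPM) were at their highest, and Lum (7.24 CPM) was at its lowest. Nr2f2, Dcn and Pdgfra lay below their input means. The part of cell make-up in these sets was not tested.

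**Figure D3:**
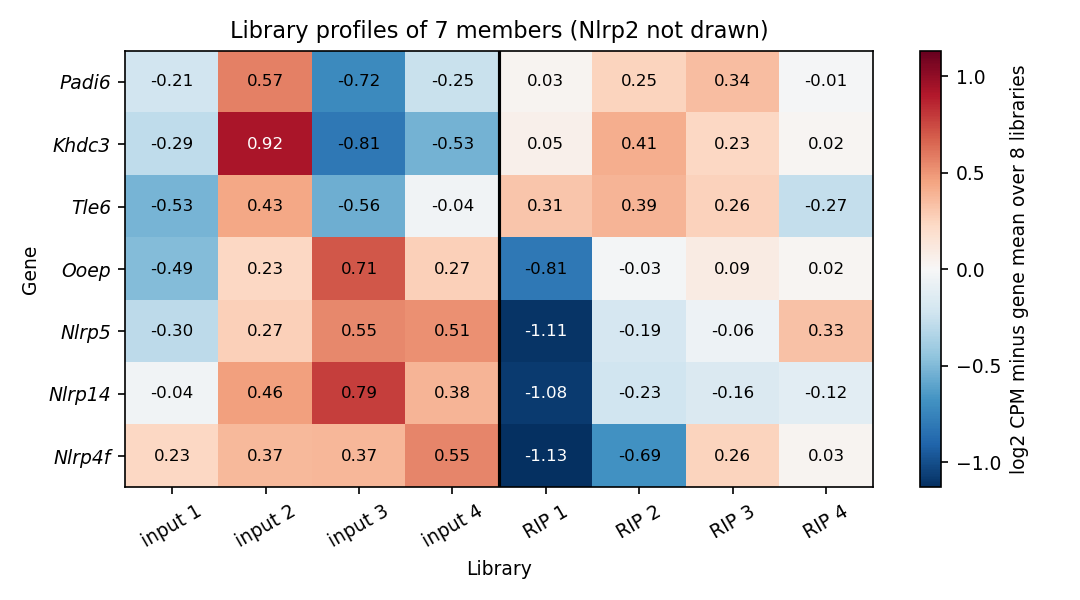
Log2 CPM of 7 members (rows) in each library (columns) minus the gene's mean over the 8 libraries, red above and blue below that mean; the black line divides input from RIP, and Nlrp2 is not drawn. Padi6, Khdc3 and Tle6 share a low in input 3, where Ooep, Nlrp5 and Nlrp14 are highest, and the lower 4 genes share a low in RIP 1.

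Likeness of 2 genes was measured as the root mean square difference of these profiles over the 8 libraries, on the log2 scale, with 0 for identical profiles. Padi6 and Khdc3 were the closest pair of members, at 0.178, and Tle6 lay 0.211 from Padi6. Ooep and Nlrp5 were 0.210 apart, and Nlrp14 lay 0.221 from Nlrp5 and 0.241 from Ooep. Nlrp4f was nearest to Nlrp14, at 0.294. Across the sets the distances were larger, with 0.848 between Khdc3 and Nlrp4f, 0.745 between Padi6 and Nlrp14 and 0.640 between Ooep and Tle6. The sets were read from these same profiles, so the distances restate them and give no separate support. Leaving Nlrp2 aside, the sets also divide as the signs of the log2 fold changes of RIP over input do. Such closeness was shared by other genes: among 7333 genes of at least median expression, Padi6 was the 3rd nearest to Khdc3, and Nlrp5 was the 66th nearest to Ooep. The mean profile of all 8 members was approached most closely by Eif2c3, the older symbol of an Argonaute gene, at 0.0985. Osbpl11 (0.120), Ncoa4 (0.124), Zfp568 (0.126) and Myo5c (0.140) came next. The sets differed in direction and partly cancelled in this mean, and Nlrp2 had the widest spread (SD 2.37 over libraries against 0.40 to 0.59 for the others). These 5 distances therefore do not measure likeness to any 1 member and cannot be set beside the distances between members.

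Ratios of members within a library do not depend on how libraries are scaled. The log2 ratio of Nlrp14 to Padi6 counts was -2.45, -2.72, -1.12 and -1.98 in input libraries 1 to 4, and -3.73, -3.10, -3.13 and -2.72 in RIP libraries 1 to 4. RIP 4 and input 2 were both at -2.72, and the other RIP libraries lay below all input libraries. For genes of the same set the ratio moved less: Tle6 to Padi6 ran from -2.34 to -1.82 in input and from -2.29 to -1.75 in RIP. These ratios depend on transcript length as well as on molecule numbers, so their differences between libraries can be read and their size cannot. They were picked after the values were seen and have no test.

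Summed over all 8 members, the complex took 0.196%, 0.316%, 0.272% and 0.290% of counts in input libraries 1 to 4, and 0.178%, 0.271%, 0.309% and 0.291% in RIP libraries 1 to 4. The groups overlapped throughout, with means of 0.268 ± 0.052% and 0.263 ± 0.058% (SD, n = 4 each), and library 1 was lowest in both. Set against the counts of 16 other oocyte genes, members came to 104.0, 126.0, 106.5 and 109.1 counts for each 100 in input, and 111.2, 114.8, 114.2 and 112.5 in RIP. The means were 111 ± 10 in input and 113 ± 1.6 in RIP, and the RIP values lay within the input range.

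Within that sum the make-up differed between libraries. Nlrp14 supplied 9.06%, 7.84%, 14.5% and 9.90% of the summed member counts in input libraries 1 to 4 and 4.404%, 6.25%, 6.13% and 7.19% in RIP libraries 1 to 4, without overlap. Padi6 supplied 31.5% to 51.8% in input and 47.4% to 58.5% in RIP, and Nlrp5 15.6% to 27.9% and 9.80% to 22.2%, with overlap for both. Shares of counts rise with transcript length and were used only to compare libraries.

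**Figure D4:**
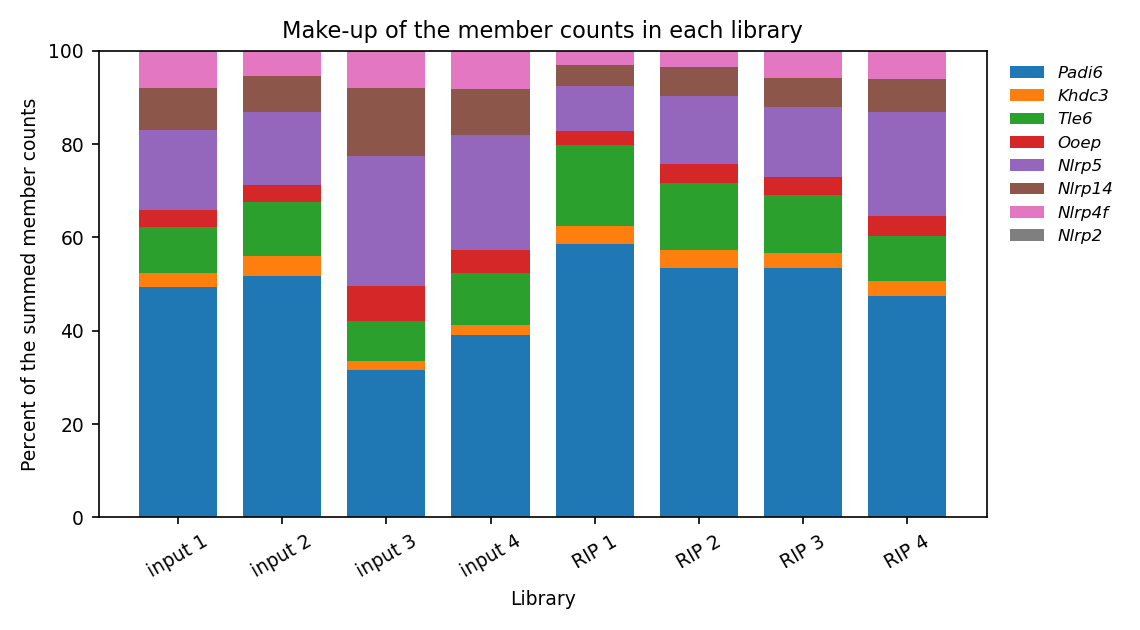
Percent of the summed counts of the 8 members (vertical axis, from 0 to 100) supplied by each gene in the 4 input and 4 RIP libraries; Nlrp2 is too small to see. The Nlrp14 segment is 7.84% to 14.5% in input and 4.404% to 7.19% in RIP, and the Padi6 segment is smallest in input 3, at 31.5%.

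Genes whose proteins work with the complex or in the lattices did not pass either. Of 12 partner genes tested, 9 had a negative and 3 a positive log2 fold change, with a median of -0.24, and 0 passed. At an unadjusted p under 0.05, 1 was lower and 1 higher, where 4.28% of all genes were lower and 3.15% higher. Uhrf1, the partner of NLRP14, was at 374, 362, 260 and 391 CPM in input libraries 1 to 4 and at 531, 525, 586 and 461 CPM in RIP libraries 1 to 4. All RIP libraries lay above all input libraries, the reverse of Nlrp14, and the log2 fold change was 0.60 ± 0.22 (adjusted p = 0.622). Ube2d3, a ubiquitin-conjugating enzyme gene, had a mean of 251 ± 25 CPM in input against 170 ± 30 in RIP (log2 -0.56 ± 0.22, adjusted p = 0.622). It did not overlap between groups, nor did Skp1, an adaptor of ubiquitin ligases (-0.49 ± 0.23), or Cfl1, an actin-severing cofilin gene (-0.32 ± 0.21). All 3 were lower in RIP. Of all genes, 2.52% were lower without overlap and 2.77% higher. For Cfl1 the margin was small, with RIP 1 at 325 and input 4 at 327 CPM. Ube2d3 and Skp1 are named although the rule for list genes did not pick them, with their values already known. Zbed3, a further component of the complex, was at 419 ± 94 and 515 ± 70 CPM (0.30 ± 0.23). The 14-3-3 genes Ywhaz (-0.14 ± 0.25), Ywhae (-0.49 ± 0.32) and Ywhag (0.38 ± 0.28) overlapped between groups.

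Genes of the members' own families are given for comparison. Of the TLE co-repressor genes, 5 were tested and 0 passed, with a median of 0.03. Tle2, which overlaps Tle6 in the genome, had a mean of 87.8 ± 17.2 CPM in input against 123 ± 17 in RIP (log2 0.49 ± 0.24, adjusted p = 0.680), without overlap, and Tle5 was at 324 ± 105 and 329 ± 105 CPM (0.03 ± 0.28). Among the other PADI genes, Padi2 was at 14.1 ± 3.7 and 20.4 ± 2.9 CPM (0.53 ± 0.35) and Padi4, the neighbour of Padi6, at 7.11 ± 6.20 and 10.7 ± 6.8 CPM (0.58 ± 0.79). Padi1 and Padi3 did not pass the filter on low counts. Of 5 KH-domain relatives tested 0 passed. The oocyte gene Khdc1b was at 99.97 ± 16.8 and 83.1 ± 9.5 CPM (-0.27 ± 0.23), and Dppa5a, next to Ooep, at 28.5 ± 14.4 and 29.0 ± 5.9 CPM (0.03 ± 0.38).

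The other NLRP and NLR genes were matched in 23 of 24 cases, and 16 passed the filter, with 6 negative and 10 positive values, a median of 0.17 and 0 passing. None of their levels exceeded 55.9 CPM in any library. Nlrc5, a regulator of antigen presentation genes, was at 22.5 ± 15.7 and 42.2 ± 11.9 CPM (log2 0.91 ± 0.42, adjusted p = 0.667), the 1 gene of the list higher at an unadjusted p under 0.05. The bacterial sensor gene Nod1 was at 17.8 ± 5.0 and 29.3 ± 11.1 CPM (0.72 ± 0.36). Close relatives of Nlrp4f were low. The rule for list genes named Nlrp4b at 11.96 ± 6.06 and 4.997 ± 3.615 CPM (-1.26 ± 0.75) and Nlrp4g at 12.9 ± 6.8 and 8.80 ± 4.16 CPM (-0.56 ± 0.50). The others tested, named after their values were known, were Nlrp4e (log2 0.56 ± 0.65), Nlrp4c (0.23 ± 1.05) and Nlrp4a (-0.08 ± 0.59), so their values were of both signs and none passed. How reads were divided among similar Nlrp4 copies is not given, so these levels are uncertain.

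Maternal-effect genes outside the complex and the oocyte reference genes gave 0 passing of 15 and of 16 tested. Dppa3, which protects the maternal genome from demethylation in the zygote, had a mean of 383 ± 151 CPM in input against 244 ± 93 in RIP (log2 -0.65 ± 0.33, adjusted p = 0.689). Like Nlrp14 it was highest in input 3, at 581 CPM, and lowest in RIP 1, at 128 CPM. Tet3, the oxidase of methylated cytosine in the zygote, was at 369 ± 56 and 443 ± 40 CPM (0.26 ± 0.22). Its RIP libraries all lay above input, by a small margin (RIP 2 at 409.6 CPM, input 1 at 408.8). Trim28 was at 402 ± 181 and 463 ± 98 CPM (0.20 ± 0.31). The zona gene Zp2 was at 444 ± 49 and 388 ± 87 CPM (-0.19 ± 0.23), and Nobox, of the homeodomain factor named above, at 187 ± 39 and 226 ± 10 CPM (0.28 ± 0.22). The medians of the lists were 0.13 for maternal-effect genes and -0.07 for oocyte reference genes, both within the interquartile range of all genes tested, from -0.39 to 0.33.

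**Figure D5:**
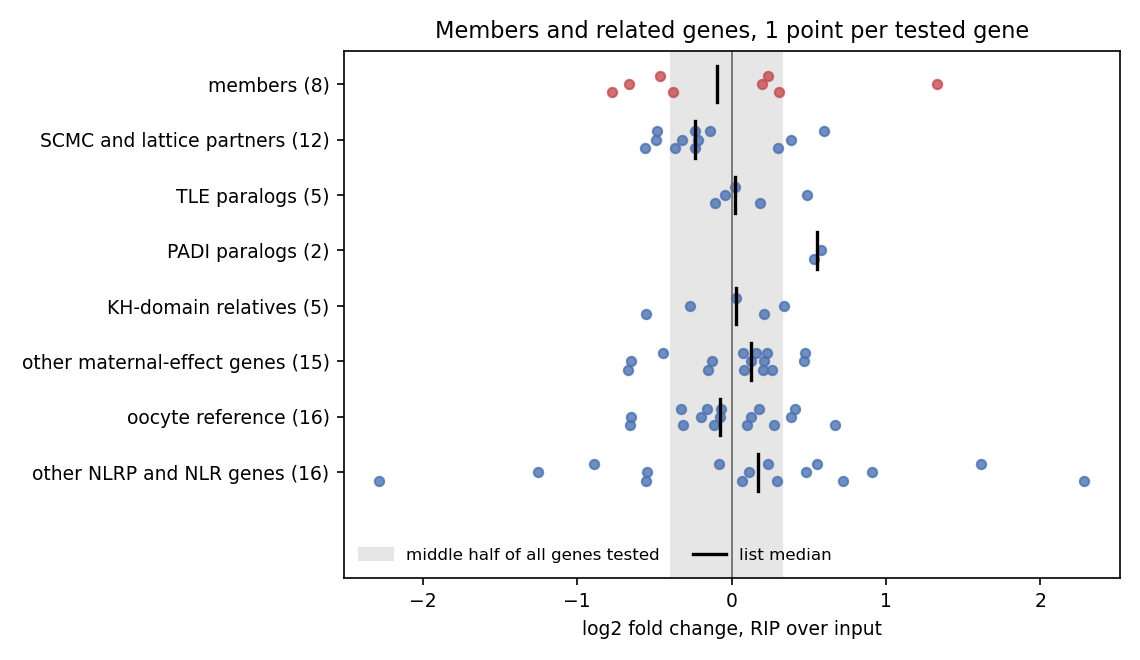
Log2 fold change of RIP over input (horizontal axis), with 1 point for each tested gene of the members (red) and of the related lists (blue), black bars for list medians, the number of tested genes in brackets and a grey band for the interquartile range of all genes tested. The list medians lie between -0.24 and 0.56, and no gene shown passed the test.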

How the data were processed

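The deposited table by the authors holds estimated counts (expected counts) per gene for 8 libraries, nearly all whole numbers. The submitters' processing notes name the mm10 build. The sources used here do not name the aligner, counter, gene annotation or strand setting. Immunoprecipitation used a Magna RIP kit, and libraries a SMARTer stranded total RNA kit, per the labels' protocols. Estimated counts were rounded before the fit, since the planned test assumed whole ones.

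RIP was compared with input over the whole table with edgeR 4.0.16 in R 4.3.3 (TMM, filterByExpr with a minimum count of 10 and a minimum total of 15, robust quasi-likelihood fit, Benjamini-Hochberg adjustment over 14667 genes, threshold 0.05). The SE was taken as the absolute log2 change over the square root of the F statistic. DESeq2 1.42.0 and limma 3.58.1 voom were alternatives, beside other scalings and filters, blocks and left-out libraries. On simulated data for this comparison over 14314 genes, 7 of 50 genes changed 2-fold and 44 of 50 changed 4-fold were recovered. All changed genes were of at least median expression, and others were changed 8-fold and 16-fold in the same run. In that run 8 unchanged genes were called. No pair of libraries held identical values.

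The members and lists were chosen with earlier results of these data known. All members were named. List genes were drawn by a rule: those past the threshold, and up to 6 with the highest mean CPM. Not every gene that the rule allowed was named, and the choice among them followed no stated rule. Those left out had log2 values of both signs, such as Kdm1b (0.23), Nlrx1 (0.30), Kit (-0.08) and Nlrp10 (-0.55). Counts per library and 95% intervals cover the spread and counting error only. Transcript lengths were not used here. Where the level of a gene is set beside that of another, reads and not molecules are compared.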

Additional observations from a re-analysis of the deposited data

Results flagged for a closer look

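In 22 groups of 4 libraries checked for a library far from the other 3, 2 stood out, where chance gives about 1 in 20. Both were RIP 1, at 61.8 CPM for Ooep and at 94.8 CPM for Nlrp14, with the gap to the next library making up 0.835 and 0.848 of the range of the RIP group. Without RIP 1 the log2 fold change was -0.21 for Ooep and -0.59 for Nlrp14.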

How the results depend on the processing

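No member passed in any of the 19 alternative fits, and the direction of Ooep, Nlrp5, Tle6, Nlrp14 and Nlrp4f was the same in all of them. Within libraries 1 and 2, Padi6 (-0.088) and Khdc3 (-0.20) turned negative; the cause was not tested. Nlrp2 kept its sign in the 17 fits that tested it and was left out by the stricter filter and within libraries 1 and 2. The median of the members lay between -0.38 (stricter filter, without Nlrp2) and 0.09, and was positive with limma voom, without input 2 and without RIP 1. Of all genes, 6 passed with the main setting (0 higher), 56 with DESeq2 (13 higher, 43 lower), 27 within libraries 1 and 2 (3 higher, 24 lower), 55 with the number groups (1 and 2, 3 and 4) as a block (12 higher, 43 lower), and 4 to 17 without 1 library, the highest being 17 without RIP 1 and 15 without input 3; the causes were not tested. With the replicate number as a block 55 passed (13 higher, 42 lower), and Nlrp14 had an adjusted p of 0.0779 and Nlrp4f one of 0.134. With the number groups as a block these were 0.092 and 0.11. Deviations from the group means correlated at 0.162, 0.091, 0.178 and 0.118 between libraries of the same number. Input 2 correlated best with RIP 1 (0.152) and input 3 with RIP 4 (0.269), so the numbers were not taken to pair the libraries. Within a number group (1 and 2, 3 and 4) the correlations ran from -0.003 to 0.269. Between number groups all were negative, from -0.252 to -0.043. Deviations from a group mean cancel within the group, so these negative values follow in part from the positive ones. The number groups of input also differed in depth, with 13098154 and 13142790 counts in libraries 1 and 2 and 25757620 and 25030604 in 3 and 4. The largest gene took 11.8% and 12.5% of counts in input 1 and 2, and 4.57% and 6.53% in input 3 and 4. RIP depth did not divide this way (16325384 and 21269892 counts, then 20199164 and 18658435). The main fit did not include the number groups, and what they stand for was not tested. The log2 ratio of the member share was -0.03 over all counts, -0.03 without the 10 largest genes and 0.02 against oocyte reference counts. The median SE was 0.396 over all genes and 0.302 over genes at or above median expression. Of 50 simulated 2-fold changes in genes at or above median expression, 7 were recovered. Most differences of that size were therefore not detectable in the simulation with 4 libraries against 4.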
